A study of Mus musculus with 10 samples.

Results

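Sin3a and Nanog occupancy were compared between 2 lines of mouse pre-iPSCs in which each protein had been added alone. Every peak of both deposited lists was taken: 17168 Sin3a peaks from the line that carries the Sin3a transgene with an empty vector (the Sin3a line) and 38485 FLAG peaks from the line (the Nanog line) that carries Nanog with a FLAG tag beside an empty vector, which makes 55653 of the 110170 peaks of the series. Each list stands for 2 ChIP-seq replicates. The remaining peaks come from a line with both transgenes (the Nanog + Sin3a line) and are used only for comparison. All lines derive from female neural stem cells of strain 129/MF1 that carry an Oct4-GFP reporter, were kept in serum with LIF, and received their transgenes through PiggyBac-CAG transposon vectors by stable transfection and drug selection. The labels do not say that the lines are clones.

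Nanog is a homeodomain transcription factor that binds DNA directly and belongs to the core network of pluripotent cells. Sin3a binds no DNA by itself. It is a scaffold that joins histone deacetylases and other subunits to DNA-bound factors, and is best known for repressing transcription, although it is found at many active promoters. Pre-iPSCs are cells halted part of the way through reprogramming. The FLAG antibody sees only the tagged, transgenic Nanog. The labels name no tag on Sin3a, so its antibody cannot be said to separate transgenic from endogenous Sin3a. Because the 2 proteins were precipitated from different lines, a shared site is a place that each protein occupied in its own line, and joint binding in 1 cell was not measured.

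The depth of the lists is known only from the ChIP fragments over each summit, the base of highest coverage in a peak. Their number had a median of 46 for Sin3a (quartiles 36 and 63) and 33 for FLAG (27 and 47). Each list gives 1 value per peak. Replicates have no values of their own here, and how far they vary could therefore not be compared with any difference reported. The 95% intervals run over peaks or pairs, which are not replicates, and so reflect counting error alone. Peak strength is the authors' −log10 q, an adjusted p-value of the summit, or the authors' fold enrichment of the summit over the expected background. Both describe a peak within its own list and do not rank Sin3a against Nanog. Genes and sequences at the sites were not analysed here, since the reference tables used are of another genome build than mm9, on which all coordinates are given.

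Nearly equal numbers of Sin3a and FLAG peaks were shared, which made up different shares of lists of unequal length, and most took the form of simple pairs. A peak was called shared when it had 1 base or more in common with a peak of the other list. This held for 15195 of 17168 Sin3a peaks (88.5%) and for 16068 of 38485 FLAG peaks (41.8%). Most shared peaks of either list met 1 peak of the other, so the shared numbers must be close. The gap between these percentages therefore follows from the list lengths by arithmetic. A comparison with only the 17168 strongest FLAG peaks was added after the data were seen. There, 61.7% of the Sin3a (60.9 to 62.4%) and 60.4% of the FLAG peaks (59.6 to 61.1%) were shared. Lists of equal length must give similar percentages here, so this comparison is no test of list length. It shows only that fewer Sin3a peaks were shared with the shorter FLAG list. Of all Sin3a peaks, 75.7% (75.1 to 76.4%) met exactly 1 FLAG peak that met no further Sin3a peak. These 12999 one-to-one pairs used 33.8% of the FLAG peaks (33.3 to 34.3%). A further 2196 Sin3a peaks and 3069 FLAG peaks were shared in other combinations. Within the pairs, the overlap was close to complete. Its median length was 406 bp, and 98.4% of pairs overlapped by at least 50% of the shorter peak. The Sin3a peak lay wholly inside the FLAG peak in 31.1% of pairs and the FLAG peak wholly inside the Sin3a peak in 23.9%. Median widths were 512 bp for paired Sin3a peaks and 558 bp for paired FLAG peaks.

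The pairs drew almost evenly on the Sin3a list and unevenly on the FLAG list. Their median place was at 46.9% from the top of the Sin3a list and at 30.03% from the top of the FLAG list. The strongest 20% of the FLAG list supplied 4595 paired peaks and the weakest 20% supplied 1061. For Sin3a these numbers were 2779 and 2136. The pairs took 75.7% of the Sin3a list but 33.8% of the FLAG list, so by arithmetic the Sin3a side had less room to be uneven. Pairs also leave out Sin3a peaks with 2 or more FLAG peaks, which were 542 in the strongest 20% and 48 in the weakest. Counted by any overlap, 99.2% of the strongest 20% and 73.3% of the weakest 20% of Sin3a peaks were shared.

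Strength of Sin3a and strength of Nanog rose together over the pairs, but loosely. Spearman's rho between the −log10 q values was 0.358 over the 12999 pairs, given as a description. Widths of paired peaks were correlated too (rho 0.577). Paired peaks may also share local background and sequence composition, which were not compared. The rho of strength was 0.361 by fold and 0.376 by fragment number, which contains no control reads. For the same protein in different lines, rho was 0.808 over 12851 Sin3a pairs and 0.741 over 25899 FLAG pairs. These values hold any effect of the added partner together with the noise of the lists. Sin3a against FLAG in the Nanog + Sin3a line gave 0.274 over 12359 pairs. Sin3a of the Sin3a line against FLAG of the Nanog + Sin3a line gave 0.291. Sin3a of the Nanog + Sin3a line against FLAG of the Nanog line gave 0.341. No difference between these values was tested. Part of the agreement went with peak width, which itself followed strength (rho 0.720 in the Sin3a list and 0.678 in the FLAG list). With both widths held constant, the rank correlation was 0.265. Within each of 5 classes of summed width, rho was lower still, between 0.0427 and 0.158. Such a class limits the sum of the widths, so a wider Sin3a peak there tends to go with a narrower FLAG peak. Without regard to width, rho was 0.194 among pairs with a −log10 q of at least 10 in both lists, a setting that narrows the range of strengths.

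**Figure D1:**
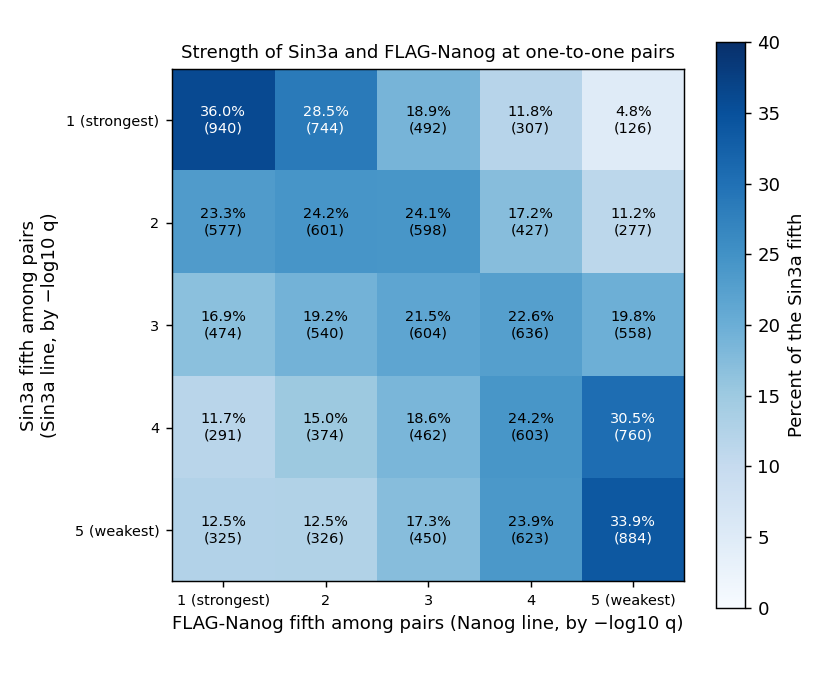
One-to-one pairs sorted into 5 classes of Sin3a strength (rows) and 5 of FLAG-Nanog strength (columns) by −log10 q among the 12999 pairs. Each cell gives the percent of its row and, in parentheses, the number of pairs. The top row falls from 36.0% to 4.83% and the bottom row rises from 12.5% to 33.9%.

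When the pairs were divided into 5 strength classes for each protein, 27.9% fell into the same class for both and 65.9% into the same or the next class. Of the pairs with the strongest 20% of Sin3a, 36.0% (940 pairs) were also in the strongest 20% for FLAG and 4.83% (126) in the weakest. Pairs in the weakest 20% for Sin3a were less ordered. Of these, 33.9% (884) were in the weakest 20% for FLAG and 12.5% (325) in the strongest. A strong FLAG peak over a weak Sin3a peak was thus 325 pairs, against 126 pairs of the opposite kind. Read as levels, the median FLAG fold was 7.93 (7.81 to 8.04) over the strongest Sin3a class and 5.06 (4.95 to 5.21) over the weakest, while the Sin3a fold itself went from 8.57 to 3.28. In the other direction, the median Sin3a fold was 6.05 (5.89 to 6.16) over the strongest FLAG class and 3.98 (3.97 to 4.06) over the weakest, where the FLAG fold went from 11.0 to 3.78.

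The sites that rank high for both proteins show what a matched pair looks like. At chr1:179553330-179553925 the Sin3a fold was 12.6 with 163 fragments over the summit (Poisson interval 139 to 190), and the overlapping FLAG peak had a fold of 18.1 with 186 fragments (160 to 215). At chr11:102962714-102964470, a Sin3a peak of 1757 bp with a fold of 12.8 lay in a FLAG peak of 1951 bp with a fold of 19.6, and the summits were 12 bp apart. At chr6:143047721-143048967 the folds were 12.9 for Sin3a and 19.5 for FLAG. In all of these sites both peaks lie in the top 1.19% of their list. The fourth site of this kind, at chr19:4988927-4989476, holds the Sin3a peak in place 3 of its list.

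Mismatched pairs lay at the opposite ends of the lists although their peaks overlapped. The Sin3a peak at chr3:145238961-145239697 had a fold of 11.3 and 128 fragments (107 to 152), in the top 1.42% of its list. The FLAG peak there had a fold of 2.62 and 26 fragments (17.0 to 38.1), at 97.7% from the top. At chr5:123794927-123796658 a Sin3a fold of 11.4 met a FLAG fold of 3.08. At chr5:123525651-123526718 peaks of similar width, 1068 bp for Sin3a and 1175 bp for FLAG, had folds of 8.51 and 2.77. The reverse case was seen at chr15:61363548-61364090, where a FLAG fold of 15.9 with 103 fragments (84.1 to 125) met a Sin3a fold of 2.78 with 24 fragments (15.4 to 35.7). At chr17:46746684-46747032 the FLAG fold was 13.8 and the Sin3a fold 2.58, and at chr12:103968002-103969974 they were 10.8 and 2.13. The last 3 positions are those of the FLAG peak. Not every weak side was as low in fragments. The weak FLAG peak at chr5:123525651-123526718 had 34, where the FLAG list median is 33. The weak Sin3a peak at the chromosome 12 site had 35, near the Sin3a lower quartile of 36. The other weak sides had 19 at chr5:123794927-123796658 and 28 at the chromosome 17 site. By −log10 q, each of these 6 pairs joins a peak from the top 5% of one list to a peak placed 88.9% or farther from the top of the other.

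The Nanog + Sin3a line, whose libraries took no part in choosing the pairs, gives a second reading of the mismatched sites. As a base, the same antibody gave a peak in that line at 87.9% of all shared Sin3a and 87.4% of all shared FLAG peaks, and at 57.2% and 56.4% of the pairs in the weakest 20% for both. Of the 126 pairs with strong Sin3a and weak FLAG, 126 had a Sin3a peak in that line, at a median place of 13.5% from the top of its list, against 12.3% in the Sin3a line. FLAG gave a peak there at 98 of the 126 (77.8%, 69.8 to 84.2%), at a median place of 61.2%, against 72.9% in the Nanog line. The 325 pairs with strong FLAG and weak Sin3a all kept a FLAG peak there, at a median place of 7.40%, against 5.84% in the Nanog line. A Sin3a peak was present at 223 of them (68.6%, 63.4 to 73.4%), at a median place of 71.3%, against 87.6% in the Sin3a line. That place is close to the 71.2% of Sin3a at pairs weak for both. Thus the strong side stayed near the top of its list. The weak side stood higher among the peaks called there than in its own line. Pairs weak for both also stood higher there, at 71.2% against 89.1% for Sin3a and 75.5% against 77.8% for FLAG. The classes were chosen by the values of the own line, so some move toward the middle comes with the choice. No conclusion is drawn from the rise. Places in the Nanog + Sin3a line are medians over the peaks called there, so sites without a peak are not in them.

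Few of the very strongest peaks of one list overlapped the very strongest of the other, and top Sin3a peaks were shared more often than top FLAG peaks. Only 4 of the 250 strongest Sin3a peaks overlapped one of the 250 strongest FLAG peaks (1.60%, 0.624 to 4.04%), yet 250 of 250 overlapped some FLAG peak. Among the top 1000 of each list, 104 Sin3a peaks (10.4%) overlapped a top FLAG peak and 996 overlapped any FLAG peak. The overlap of top with top peaks was 36.6% of Sin3a peaks at the top 5000 and 52.7% at the top 10000. A top 250 or 1000 is a small part of lists of 17168 Sin3a and 38485 FLAG peaks, which by itself keeps such overlaps small. The strongest FLAG peaks were shared less than the strongest Sin3a peaks, although more than the 41.8% over all FLAG peaks. Of them, 155 of the top 250 (62.0%, 55.8 to 67.8%) and 691 of the top 1000 (69.1%, 66.2 to 71.9%) overlapped any Sin3a peak. Top Sin3a peaks are held against the longer list. With the FLAG list cut to its 17168 strongest peaks, the gap was smaller but still beyond the counting intervals, at 94.4% (90.8 to 96.6%) of the top 250 and 92.1% (90.3 to 93.6%) of the top 1000 Sin3a peaks. In the top 5% of each list, 2 of 864 Sin3a peaks had no FLAG peak (0.231%, against 11.5% of the whole list). Of the FLAG peaks, 585 of 1924 had no Sin3a peak (30.4%, against 58.2% of the whole list). The strongest peak of the whole FLAG list, at chr1:134367425-134368126 with a fold of 35.4, was among these 585, and its nearest Sin3a peak lay 5174 bp away.

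**Figure D2:**
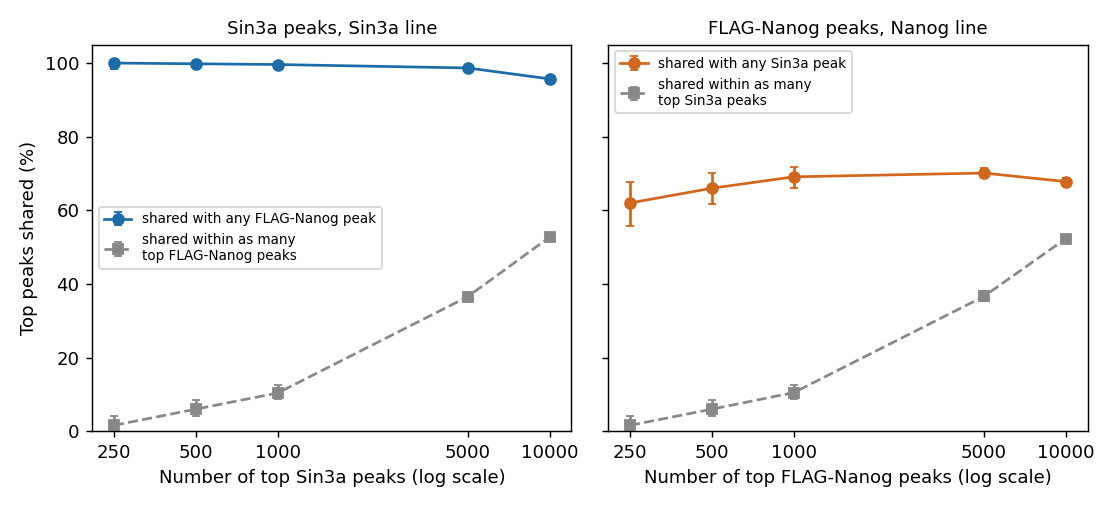
Share of the strongest Sin3a peaks (left) and FLAG-Nanog peaks (right) that overlap any peak of the other list (solid lines) or one among the same number of its strongest peaks (dashed lines), against the number of top peaks on a log axis. Points are percentages and bars 95% Wilson intervals. Between 95.7% and 100% of top Sin3a peaks overlapped some FLAG peak, while the dashed lines start at 1.60% for the top 250.

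Summits lay to either side of each other about equally often. The offset is the FLAG summit minus the Sin3a summit along the plus strand, and carries no gene direction. Its median over the pairs was 0 bp (-1 to 3), with quartiles at -75 and 75 bp. The FLAG summit lay at the higher coordinate in 6490 pairs and at the lower in 6449, which makes 50.2% (49.3 to 51.0%) of the pairs that differ, and 60 pairs had both summits on the same base. The offset of the peak centres had a median of 1 bp (-1 to 3). No shift of 1 list along the genome was therefore detectable beyond a few bp.

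The distance between summits, regardless of side, had a median of 75 bp (73 to 77). Summits lay within 25 bp in 20.1% of pairs, within 50 bp in 36.9% and within 200 bp in 82.3%, and more than 500 bp apart in 333 pairs (2.56%). Each summit lay inside the partner's peak in 88.8% of pairs. The distance grew with the width of the peaks, from a median of 49 bp (47 to 53) in the 20% of pairs with the smallest summed width to 124 bp (117 to 131) in the 20% with the largest. In all 5 classes of summed width, the interval of the share of pairs with the FLAG summit at the higher coordinate included 50%. Pairs in the strongest 20% for both proteins had a median distance of 64 bp (59 to 70) with median widths of 928.5 bp for Sin3a and 851 bp for FLAG. Pairs in the weakest 20% for both had 76 bp (69 to 86) with widths of 283.5 and 301 bp. These distances did not increase with the widths, and their intervals just overlap.

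**Figure D3:**
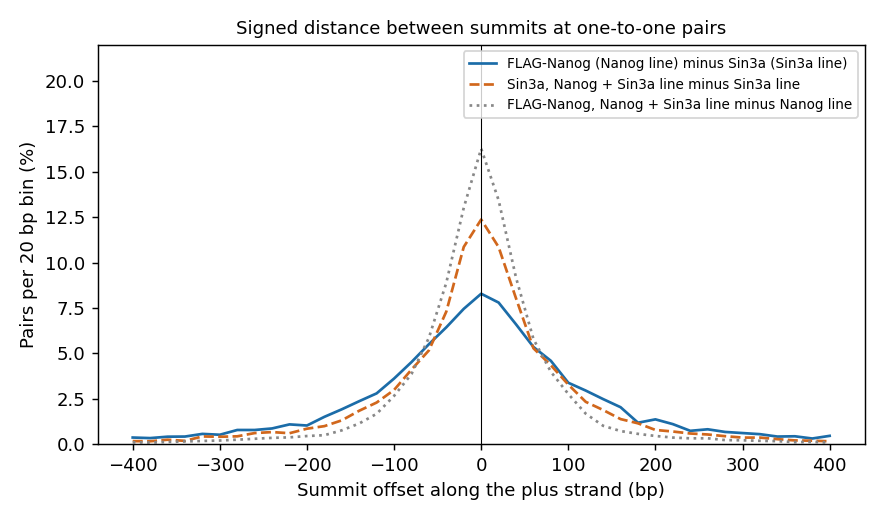
Percent of one-to-one pairs in bins of 20 bp of signed summit offset, for FLAG-Nanog against Sin3a across the single-transgene lines (solid) and, for scale, for Sin3a (dashed) and FLAG-Nanog (dotted) between lines. All curves peak at 0, where they reach 8.29%, 12.4% and 16.3%, and the solid curve is the broadest.

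Single sites show both extremes. At chr2:168032639-168033209 the Sin3a peak (fold 12.9) and the FLAG peak (fold 18.5) had their summits on the same base, 168032969, and so did those at chr3:108357032-108358016, with folds of 9.66 and 16.4 and summits at 108357743. At chr6:124778143-124780627, peaks of 2485 bp for Sin3a and 2503 bp for FLAG covered nearly the same bases, but the FLAG summit lay 648 bp to the lower side. At chr10:126748216-126749761 it lay 687 bp to the lower side, with folds of 10.8 for Sin3a and 14.5 for FLAG.

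Shared peaks were stronger than unshared ones in both lists, and much of the difference went with peak width. Without regard to width, the median fold of shared Sin3a peaks was 4.94 (4.86 to 4.96) against 3.65 (3.54 to 3.65), a ratio of 1.35, and that of shared FLAG peaks 5.98 (5.95 to 6.05) against 4.30, a ratio of 1.39. Each list was then divided into 10 width classes of nearly equal size, and the median folds were compared within a class. Averaged over the classes with weights by unshared peaks, the ratio was 1.08 for Sin3a and 1.03 for FLAG. On the log2 scale this left 25.5% of the unmatched difference for Sin3a and 9.37% for FLAG. Weights by all peaks, added after the data were seen, gave 1.16 and 1.05, which left 47.6% for Sin3a and 13.6% for FLAG.

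What remained depended on the width. Among the narrowest Sin3a peaks (209 to 245 bp), shared and unshared peaks had the same median fold of 3.43. The ratio was 1.19 at 417 to 497 bp (4.63 against 3.91) and 1.30 at 720 to 885 bp (6.16 against 4.74). The widest class, from 1135 bp, held only 4 unshared peaks and was left out. The intervals of the 2 medians were apart in 7 of the 9 classes used. FLAG peaks showed less. Their ratio was 0.987 at 181 to 201 bp (3.64 against 3.69), reached 1.13 at 511 to 634 bp (6.43 against 5.69), and was 1.07 in the widest class (8.41 against 7.83). The intervals were apart in 4 of 10 classes.

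**Figure D4:**
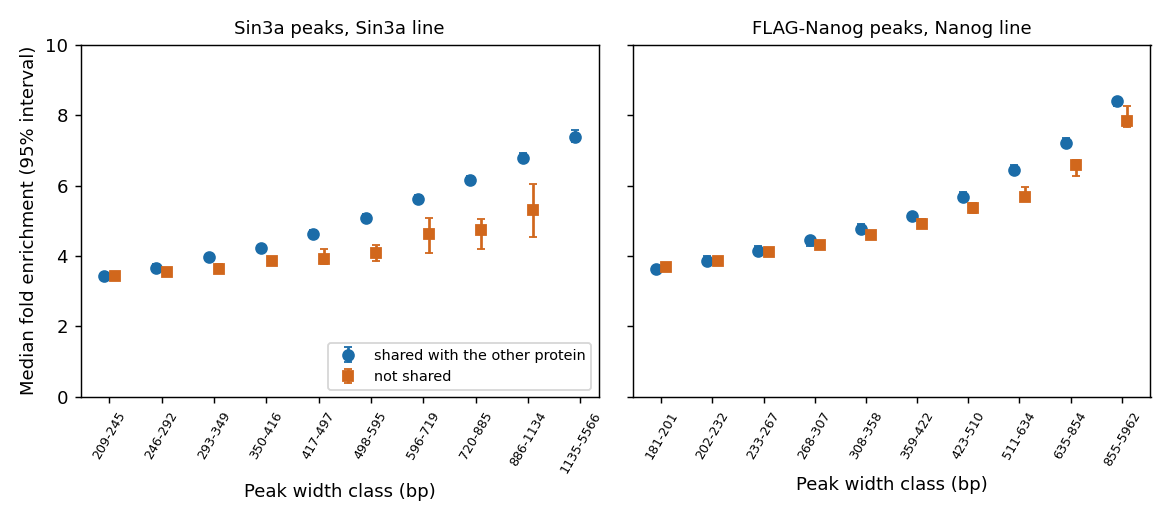
Median fold enrichment of shared (circles) and unshared (squares) peaks in 10 width classes of the Sin3a list (left) and the FLAG-Nanog list (right), with 95% intervals of the median. In the narrowest class the medians are 3.43 and 3.43 for Sin3a and 3.64 and 3.69 for FLAG-Nanog. They part with width for Sin3a, and the widest Sin3a class shows no square because it holds 4 unshared peaks.

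Seen the other way, width differed at equal strength. Within 10 classes of fold, shared peaks were wider than unshared ones by a mean ratio of 1.23 for Sin3a (1.07 to 1.77 over the 9 classes used) and 1.38 for FLAG (1.19 to 1.57 over 10 classes). The shared percentage rose with width in both lists, for Sin3a from 70.1% (67.9 to 72.3%) in the narrowest class to 99.8% in the widest, and for FLAG from 13.8% (12.7 to 14.9%) to 87.9% (86.9 to 88.9%). A wide peak offers more bases for an overlap, and how much of this rise comes from that was not tested.

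Most Sin3a peaks that met Nanog met 1 FLAG peak. No FLAG peak lay at 1973 Sin3a peaks (11.5%), 1 at 13916 (81.1%), 2 at 1172 (6.83%), 3 at 102 and 4 at 5. Thus 7.45% of Sin3a peaks (7.07 to 7.85%) covered parts of 2 or more FLAG peaks. In the other direction 502 of 38485 FLAG peaks (1.30%, 1.20 to 1.42%) met 2 or more Sin3a peaks, 16 of them 3. The order of these shares depends on list length. With equal numbers of top peaks it was reversed, at 1.26% of Sin3a and 2.48% of FLAG peaks. Over the shared Sin3a peaks the mean was 1.09 FLAG peaks each.

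Sin3a peaks over several FLAG peaks were the wide ones. Their median width was 1140 bp (1116 to 1164), against 505 bp (499 to 512) with 1 FLAG peak and 295 bp (290 to 301) with none, and their median fold was 6.49, against 4.84 and 3.65. The share with 2 or more FLAG peaks lay between 0.174% and 0.465% in the 4 narrowest classes, up to 416 bp, and reached 16.3% at 886 to 1134 bp and 37.9% (35.7 to 40.3%) from 1135 bp. It also rose with strength, from 1.45% in the weakest 20% of the list to 15.8% in the strongest. Within the widest class, however, it was 36.2% (33.1 to 39.5%) among the stronger 858 peaks and 39.6% (36.4 to 42.9%) among the weaker 858, with overlapping intervals.

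**Figure D5:**
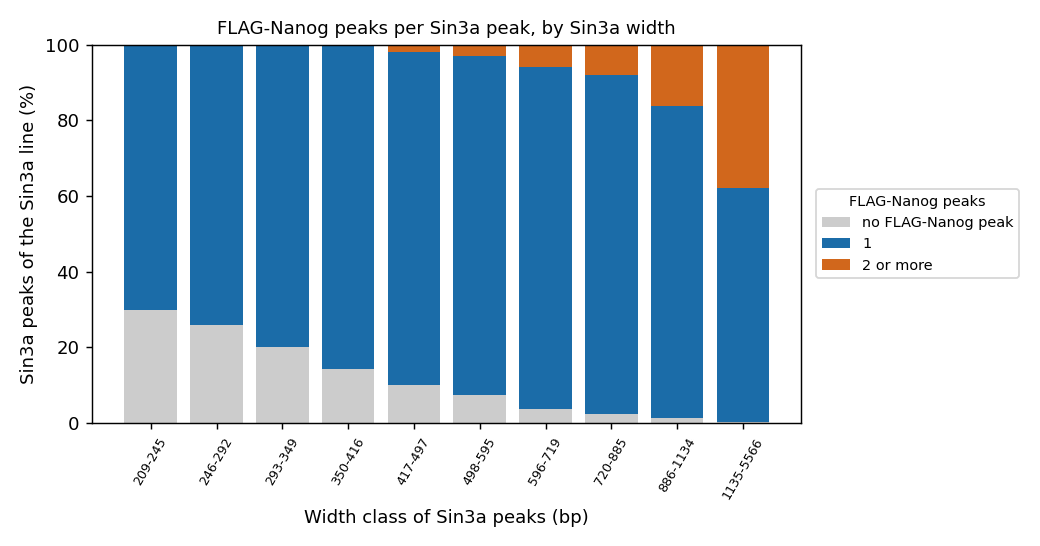
Percent of Sin3a peaks of the Sin3a line that overlap no (grey), 1 (blue) or 2 or more (orange) FLAG-Nanog peaks of the Nanog line, in 10 width classes. The orange part is 0.350% in the narrowest class and 37.9% in the widest, where the grey part is 4 peaks.

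Where a Sin3a peak held exactly 2 FLAG peaks, its summit sat by one of them rather than midway. The FLAG summits were a median of 640 bp apart (quartiles 484 and 852). The Sin3a summit was a median of 97 bp from the nearer and 578 bp from the farther, and lay between them in 68.1% of cases (65.4 to 70.7%). The nearer FLAG peak was the stronger one in 856 of 1159 cases (73.9%, 71.3 to 76.3%), counted where neither distance nor strength was tied. The same was seen with the lists exchanged. Where a FLAG peak held exactly 2 Sin3a peaks, its summit was nearer to the stronger of these in 321 of 479 cases (67.0%, 62.7 to 71.1%).

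The Sin3a peaks with the most FLAG peaks held 4 each. The strongest was at chr11:98010418-98012253, 1836 bp wide with a Sin3a fold of 12.5, and its FLAG peaks had folds from 3.64 to 7.65. The next, at chr11:106648475-106651477, was 3003 bp wide with a Sin3a fold of 10.2 over FLAG folds from 2.53 to 10.7, and the third, at chr5:143575473-143578152, had 7.69 over 3.74 to 5.36. Conversely, a FLAG peak at chr7:80761748-80764202 with a fold of 17.9 covered 3 Sin3a peaks with folds from 3.32 to 9.88. Another, at chr5:65199311-65202158 with a fold of 13.1, covered 3 with folds from 3.28 to 4.44.

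Unshared peaks of the 2 proteins lay at different distances from the other protein. An unshared Sin3a peak had its nearest FLAG peak a median of 870 bp away (quartiles 291 and 10063), and 52.2% lay within 1000 bp of one. For unshared FLAG peaks the nearest Sin3a peak was a median of 19426 bp away, and 13.2% lay within 1000 bp. The FLAG list is the longer one, which by itself shortens the distances of Sin3a peaks. Among unshared FLAG peaks, the share within 1000 bp was 5.94% in the strongest 20% of the list and 18.0% in the weakest. Among unshared Sin3a peaks it was 10 of 27 in the strongest 20% and 472 of 884 in the weakest.

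The strongest unshared Sin3a peak, at chr1:174056339-174057340, had a fold of 10.4, 113 fragments (93.1 to 136) and no FLAG peak within 20538 bp. The next ones were neighbours of FLAG peaks, at chr7:91233517-91234079 with a fold of 9.01 and a FLAG peak 742 bp away, and at chr3:98142515-98143162 with a fold of 10.1 and one 398 bp away. Beside the strongest FLAG peak, the top unshared FLAG peaks were at chr3:133187354-133188282 (fold 41.5, 271 fragments, 240 to 305), 18659 bp from Sin3a, and at chr15:10653173-10653898 (fold 38.2, 270 fragments, 239 to 304), 8399 bp from Sin3a.

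Unshared peaks were less often called again in the Nanog + Sin3a line. The same antibody gave a peak there at 87.9% of shared (87.3 to 88.4%) and 56.2% of unshared Sin3a peaks (54.0 to 58.4%), and at 87.4% of shared (86.9 to 88.0%) and 64.7% of unshared FLAG peaks (64.1 to 65.3%). These groups were not matched for width. The missing partner appeared in the Nanog + Sin3a line at 17.7% of the unshared Sin3a peaks and 10.6% of the unshared FLAG peaks. For comparison, the partner gave a peak in that line at 89.9% of the shared Sin3a peaks and 88.2% of the shared FLAG peaks.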

How the data were processed

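ChIP-seq had been run on 10 samples. The 4 lists used here stand for 4 groups of 2 replicates, and controls were left out. Per the submitters' processing notes, FastQC 0.10.1, Bowtie 1.0.0, SAMtools 0.1.19 and build mm9 were used. The sources used here do not name the peak caller, the control or any pooling of replicates. The deposited lists give each peak's fold enrichment (a ratio), −log10 p, −log10 q and a score, which equals 10 times the −log10 q without decimals. Fragments over a summit were recovered as the whole number that fits the authors' fold and −log10 p, with exactly 1 solution for 99.5% to 99.9% of the peaks of a list.

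Pairs, ranks and width classes were computed with NumPy 2.4.6, SciPy 1.17.1 and pandas 2.3.3 under Python 3.11.15, and Matplotlib 3.10.9 drew the figures. Shares carry Wilson intervals, medians order-statistic intervals and fragments Poisson intervals, all at 95%. Width classes with under 20 peaks on either side were left out. The overlap code was checked against bedtools, and the measures were tested on simulated data. Named sites are those strongest in both lists, most mismatched, with most partners, strongest unshared, and with summits on the same base or over 500 bp apart. The members, comparisons and this rule were chosen with earlier results of these data known. Results were recomputed with other definitions of overlap (50% of the shorter peak, or a summit distance up to 200 bp), with a minimum −log10 q of 5 or 10, with lists trimmed to equal length, with other strength measures, and with 5 or 20 width classes. Coordinates are 1-based.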

Additional observations from a re-analysis of the deposited data

How the results depend on the processing

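No paired analysis was possible because replicates have no values of their own in the peak lists, which also meant that none could be left out. Of the alternatives, 29 kept a value within its interval (for ratios, within 10%), 30 moved it, and none turned a ratio to the other side of 1. Of those 29, 8 concern the width-matched ratio of Sin3a (1.08) and 9 that of FLAG (1.03). Both ratios lie less than 10% from 1, so a kept ratio does not mean that a difference remained. The cause of the 30 moves was not tested, except where the setting itself limits the value. Rank agreement (0.358) was 0.314 and 0.194 at a −log10 q of at least 5 and 10, 0.214 with equal numbers of top peaks, 0.265 given both widths and 0.376 by fragments, which was added after the data were seen. The median summit distance (75 bp) was 59 with summits within 200 bp, which bounds it, and 79 and 78 at a −log10 q of at least 10 and with equal top peaks. There the share of FLAG summits at the higher coordinate was 49.2% at a −log10 q of at least 10 (48.0 to 50.4%). Strength ratios without matching for width were 1.35 for Sin3a and 1.39 for FLAG, and 1.22 for Sin3a by −log10 q. With equal top peaks the matched ratio for FLAG was 1.00. In the order 50% of the shorter peak, summits within 200 bp, −log10 q of at least 5 and 10, and equal top peaks, Sin3a peaks with 2 or more FLAG peaks made up 5.79, 0.0699, 5.86, 2.54 and 1.26%, and FLAG peaks with 2 or more Sin3a peaks 0.980, 0.00520, 0.902, 0.469 and 2.48%. So the order of the 2 shares was reversed with equal top peaks. There, added after the data were seen, 61.7% of Sin3a and 60.4% of FLAG peaks were shared, with 94.4 and 92.1% of the top 250 and 1000 Sin3a peaks and, as before, 62.0 and 69.1% of the top FLAG peaks. One-to-one pairs took 76.6, 70.3, 77.9 and 55.5% of Sin3a peaks with 50% of the shorter peak, summits within 200 bp, a −log10 q of at least 5 and equal top peaks. Weak peaks rest on few fragments. Whether unshared peaks have a partner below the calling threshold of the other list was not tested.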

Other observations

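Chromosomes differed in how Nanog and Sin3a peaks were balanced. The number of FLAG peaks per Sin3a peak ranged over the 19 autosomes from 1.88 on chromosome 5 to 3.20 on chromosome 18, with a median of 2.22. Chromosome 18 held 383 Sin3a and 1227 FLAG peaks, and had both the highest shared percentage for Sin3a (94.0%, 91.2 to 96.0%) and the lowest for FLAG (30.8%, 28.3 to 33.4%). Chromosome 14 had the lowest shared percentage for Sin3a, at 82.7%, and chromosome 19 the highest for FLAG, at 48.5%. On the X chromosome of these female cells, 218 Sin3a and 579 FLAG peaks gave 2.66 FLAG peaks per Sin3a peak, and 83.0% (77.5 to 87.4%) of the Sin3a and 31.4% (27.8 to 35.3%) of the FLAG peaks were shared. Copy number and mappable sequence were not measured.

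Rank agreement of the pairs ranged over autosomes from a Spearman's rho of 0.284 on chromosome 18 (305 pairs) to 0.453 on chromosome 3 (619 pairs), and was 0.258 over the 166 pairs of the X chromosome. The median signed summit offset lay between -16 bp on chromosome 3 and 6 bp on chromosomes 6, 7 and 8 among the autosomes, and was -17.5 bp on the X chromosome. Chromosome 3 was the 1 autosome of 19 where the interval of the share of FLAG summits at the higher coordinate excluded 50%, at 44.7% (40.8 to 48.7%), and 95% intervals over 19 chromosomes leave room for such a case. These values were not tested between chromosomes.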
